A study of Mus musculus with 412 samples.

Results

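Protons released in inflamed or poorly perfused tissue are sensed by primary afferents through ion channels and G protein-coupled receptors. The 7 genes described here encode members of both groups, namely the acid-sensing ion channel (ASIC) subunits Asic1, Asic2, Asic3 and Asic4 and the receptors Gpr4, Gpr65 and Gpr132. They were taken by symbol from the 45513 genes of the expression table, and all 7 were found, each as 1 gene. ASICs are sodium-permeable trimers whose subunits may come from the same or from different genes, and the subunits present set how the channel opens and closes. ASIC1 and ASIC3 form channels that protons open, ASIC2 joins them and changes their sensitivity, and ASIC4 forms no proton-gated channel on its own. GPR4 and GPR65 respond to acid through G proteins that raise cyclic AMP, and GPR132 is grouped with them although its response to protons is weak.

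Colonic sensory neurons of C57BL/6J mice were traced by Fast Blue (FB) injected into the colon wall, picked by hand from dissociated dorsal root ganglia (DRG) and sequenced one by one with the full-length Smart-seq2 method. No treatment or genotype separates the groups, the age of the mice is not given in the sources used here, and the mice were healthy. The table holds 167 thoracolumbar (TL, T10-L1) neurons and 158 of lumbosacral (LS, L5-S2) origin, which send their axons through the splanchnic and the pelvic nerve, respectively. The mouse behind each neuron is not named, so each segment counts as 1 sample, no p-value was computed, and direction was compared instead within library plates 2 to 6, each of which holds neurons of both segments (plate 1 holds 5 TL neurons only).

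Levels are given as TPM, transcripts in each 1000000, that is, the deposited value taken off its log2 scale and rescaled to 1000000 in each neuron, which is a level per transcript length. A gene was counted in a neuron at 10 TPM or more. Depth ranged from 416007 to 12058968 reads per neuron, and the median was 2709639 for TL and 3202776 for LS neurons, while 1 read was worth a median of 0.213 TPM for Asic1 and 0.331 TPM for Asic3, so that the threshold stood well above a single read. All 10 genes of the sensory neuron list had a median of at least 10 TPM in both segments. Transcripts of satellite glia, the cells that wrap DRG neurons, were also present, with a summed level over 10 genes of 50.7 to 99498 TPM (median 2602) for TL and 6.67 to 60788 TPM (median 1515) for LS neurons. Because picked neurons can carry RNA of adhering cells, a higher level cannot be assigned to the neuron alone, and 47 neurons (29 TL, 18 LS) had few genes detected. A single TL library stood apart by its endothelial transcripts and is described with Gpr4.

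Neurons were also grouped by Gfra3, the receptor subunit for artemin carried by many peptidergic nociceptors, and by Piezo2, a mechanically gated channel. At 10 TPM or more, Gfra3 alone was counted in 82 TL and 76 LS neurons, Piezo2 alone in 55 TL and 65 LS neurons, both in 18 and 7, and neither in 12 and 10. Of the 22 neurons with neither, 12 had few genes detected. The threshold fell in a thinly filled range for Gfra3, with 6 neurons between 5 and 20 TPM (9.63 just below and 10.98 just above the threshold), and in a fuller one for Piezo2, with 27 neurons (9.99 and 10.9).

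Asic1, Asic2 and Asic3 accounted for nearly all of the signal. Asic2 was the most widespread, at 10 TPM or more in 223 of 325 neurons (68.6%), followed by Asic3 in 81 (24.9%) and Asic1 in 36 (11.1%). Asic3 nevertheless had the highest mean per transcript length over all neurons, 78.8 TPM against 22.2 TPM for Asic2 and 4.40 TPM for Asic1. Gpr65 was counted in 11 neurons and Gpr4 in 3. Asic4 and Gpr132 reached the threshold in none, which allows a share of up to 1.80% of TL and 1.90% of LS neurons (for a count of 0, here and below, 3 neurons of the total).

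The regions where RefSeq places the starts of the 3 expressed ASIC genes are shown because Asic2 has a pair of starts, whose transcripts are pooled in a single value here, while Asic1 and Asic3 have 1 window each. Each window runs from 250 bases before to 50 bases after the start, 5′ to 3′ on the gene's strand (GRCm38.p6), with every CG pair in capitals.
Asic3, chr5:24413201-24413500 (+): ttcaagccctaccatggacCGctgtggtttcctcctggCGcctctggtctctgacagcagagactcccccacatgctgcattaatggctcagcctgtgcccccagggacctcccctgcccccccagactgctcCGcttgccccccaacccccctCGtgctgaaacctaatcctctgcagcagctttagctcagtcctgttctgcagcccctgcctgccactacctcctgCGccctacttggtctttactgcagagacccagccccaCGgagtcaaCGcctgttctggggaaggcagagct
Asic1, chr15:99691974-99692273 (+): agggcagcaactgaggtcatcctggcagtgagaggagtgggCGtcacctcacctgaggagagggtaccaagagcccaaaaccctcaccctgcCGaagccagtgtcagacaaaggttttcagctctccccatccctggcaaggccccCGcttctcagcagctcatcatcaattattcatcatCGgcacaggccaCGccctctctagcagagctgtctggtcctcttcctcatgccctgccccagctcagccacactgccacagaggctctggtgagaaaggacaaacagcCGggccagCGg
Asic2, inner start, chr11:81152854-81153153 (-): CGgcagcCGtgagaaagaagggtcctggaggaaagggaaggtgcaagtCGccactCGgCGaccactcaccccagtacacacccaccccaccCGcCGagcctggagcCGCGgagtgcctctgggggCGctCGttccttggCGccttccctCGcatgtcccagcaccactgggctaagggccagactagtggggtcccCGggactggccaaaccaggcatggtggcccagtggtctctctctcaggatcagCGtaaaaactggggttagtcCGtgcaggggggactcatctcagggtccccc
Asic2, outer start, chr11:81968347-81968646 (-): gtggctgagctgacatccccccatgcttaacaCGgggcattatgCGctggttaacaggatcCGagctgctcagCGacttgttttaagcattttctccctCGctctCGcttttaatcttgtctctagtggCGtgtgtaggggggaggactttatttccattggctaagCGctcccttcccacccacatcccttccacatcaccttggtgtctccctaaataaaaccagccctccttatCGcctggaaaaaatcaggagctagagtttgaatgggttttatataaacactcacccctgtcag
The Asic3 and Asic1 windows each held 7 CG pairs, the median over 32851 windows of this length. The inner Asic2 window held 16, more than 67.0% of all windows, and the outer held 9. TATAAA, searched on both strands, was present in the outer Asic2 window and in none of the other 3, against 13.6% of all windows. It lies there within the 50 bases after the start, not before it. The Asic1 window lies inside the gene's annotated span, which begins at 99670368, so that end of the gene is not shown. Transcripts from any other Asic1 start would be pooled in its value too. Windows were found for 6 of the 7 members.

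Asic3 (ENSMUSG00000038276, chromosome 5 from 24413392 to 24417835, plus strand), the subunit best known from sensory neurons of muscle, heart and gut, was, beside Gpr65, the member whose mean was at least 2-fold higher in TL and higher there in each of plates 2 to 6. In TL neurons it ranged from 0 to 1037 TPM with a median of 0, and in LS neurons from 0 to 1058 TPM with a median of 0. Many neurons had no read, 100 of 167 TL and 109 of 158 LS neurons, and the segments overlapped over the whole range. The number of high neurons differed, with 45 of 167 TL neurons at 100 TPM or more against 12 of 158 LS neurons. Between 10 and 100 TPM stood 12 neurons of each segment. Above 0 but below 10 TPM, LS neurons were the more numerous, with 25 against 10 TL neurons. The share at 10 TPM or more was 34.1% in TL (57 of 167, exact 95% interval 27.0 to 41.9%) and 15.2% in LS neurons (24 of 158, 9.98 to 21.8%). These intervals are Clopper-Pearson intervals, and here and below they cover counting error only. Among the neurons counted, the median level was 295.3 TPM in TL and 104.2 TPM in LS.

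The mean of Asic3 was 128.5 TPM in TL and 26.2 TPM in LS neurons, a 4.90-fold difference. TL was higher in each of the 5 plates, with means of 153 against 52.4 TPM in plate 2, 259.6 against 78.5 TPM in plate 3, 95.9 against 7.21 TPM in plate 4, 129.3 against 5.87 TPM in plate 5 and 57.2 against 15.7 TPM in plate 6. The fold thus ran from 2.92 to 22.0, and no plate mean of LS exceeded the TL mean of its own plate, although the LS means of plates 2 and 3 lay close to or above the lowest TL mean. A mean at least 2-fold higher in TL and higher in each of plates 2 to 6 was met by 487 of the 15249 genes with a mean of at least 1 TPM (3.19%), and a mean higher in LS by the same rule was met by 3.68%. Of the 5 members that passed the filter on the mean, Asic3 and Gpr65 were called higher in TL and none in LS. Gpr65 passed it with a mean of 1.04 TPM, reached through TL neurons (1.62 TPM against 0.43 TPM in LS). Gpr4 passed it at 1.96 TPM through 1 TL library at 535.6 TPM, without which its TL mean was 0.17 TPM. The number called among the 5 thus depends on that filter and is not a result about the members. For Asic3, both the share of neurons counted and the level in those counted were lower in LS. On the scale as deposited, without rescaling, the fold was 7.40, again with TL higher in all 5 plates. That scale moved the median log2 ratio of LS over TL over all genes from 0.05 to -0.10, and the calls from 561 higher in LS and 487 in TL (53.5% higher in LS) to 372 and 706 (34.5%).

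**Figure D1:**
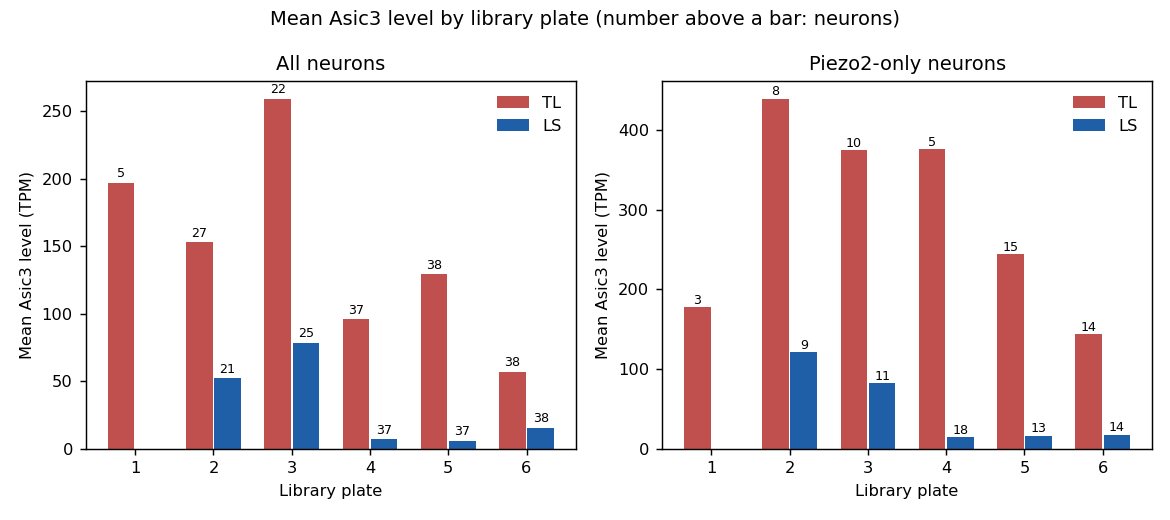
Mean Asic3 level (vertical axis, TPM) in TL (red) and LS (blue) neurons of each library plate (horizontal axis), for all neurons (left) and for Piezo2-only neurons (right), with the number of neurons above each bar. The TL bar is the taller one in each of plates 2 to 6 in both panels, by 2.92 to 22.0-fold over all neurons and by 3.62 to 25.3-fold in Piezo2-only neurons, and plate 1 holds TL neurons only.

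Asic3 was mostly a gene of Piezo2 neurons. Of the 81 neurons with Asic3, 60 also had Piezo2 (74.1%, 63.1 to 83.2%), against 85 of 244 without Asic3 (34.8%, 28.9 to 41.2%). Piezo2-only neurons had a mean of 150.6 TPM and Gfra3-only neurons 5.38 TPM, a 28.0-fold difference that had the same direction in all 5 plates. This rule was met in the direction of Piezo2-only neurons by 6.01% of the genes tested and in the direction of Gfra3-only neurons by 4.89%. Asic3 and, on account of a single neuron described below, Asic1 were the members called higher in Piezo2-only neurons, and none of the 5 tested was called higher in Gfra3-only neurons. With the values as deposited the fold of Asic3 was 10.6, and the median log2 ratio of Piezo2-only over Gfra3-only means over all genes moved from 0.01 to -0.44. The calls then changed from 917 higher in Piezo2-only and 746 in Gfra3-only neurons (55.1% higher in Piezo2-only) to 561 and 1262 (30.8%).

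The order of the segments was the same in the means of both classes. In TL Piezo2-only neurons Asic3 was at 10 TPM or more in 28 of 55 (50.9%, 37.1 to 64.6%), ranging from 0 over a median of 35.1 to 1037 TPM with a mean of 279 TPM. In LS Piezo2-only neurons it was counted in 20 of 65 (30.8%, 19.9 to 43.4%), ranging from 0 over a median of 1.22 to 637 TPM with a mean of 41.9 TPM. The share intervals overlapped, whereas the means differed 6.66-fold and TL was higher in all 5 plates, by 3.62 to 25.3-fold. Within Piezo2-only neurons, 2.95% of genes were called higher in TL and 5.76% higher in LS by the same rule, and Asic3 was the only member called.

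Asic3 was rare in Gfra3-only neurons. It was counted in 9 of 82 TL Gfra3-only neurons (10.98%, 5.14 to 19.8%), with a highest level of 291.5 TPM, and in 0 of 76 LS Gfra3-only neurons, which allows a share of up to 3.95%. The highest level in that LS class was 4.19 TPM, and 6 of its 76 neurons had any read. Within Gfra3-only neurons TL was higher in 4 of 5 plates, so Asic3 was not called there, where 2.42% of genes were called higher in TL and 3.00% higher in LS. Neurons with both Gfra3 and Piezo2 had Asic3 in 11 of 18 TL and 1 of 7 LS cases, the LS neuron being the one at 1058 TPM. Those with neither had it in 9 of 12 TL and 3 of 10 LS cases, but Piezo2 had a read in 21 of these 22 neurons, with a median of 4.87 and a highest level of 9.60 TPM, so that they lay below the threshold rather than without Piezo2. Of the 158 Gfra3-only neurons, 53 had a read of Piezo2.

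Satellite glia transcripts moved with Asic3. Their summed level ran from 150.1 to 49225 TPM (median 3614) in the 81 neurons with Asic3 and from 6.67 to 99498 TPM (median 1620) in the 244 without, and 7 of the 10 listed genes had a median of at least 10 TPM in the former against 4 in the latter, with no listed gene at 0 in every neuron of either group. Without the 5% of neurons highest for these transcripts, the TL mean of Asic3 was 5.01-fold that of LS, and without neurons with few genes 5.25-fold. The summed glial level also differed between the segments, with medians of 2602 TPM in TL and 1515 TPM in LS. The part of these transcripts in the difference of Asic3 was not tested.

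**Figure D2:**
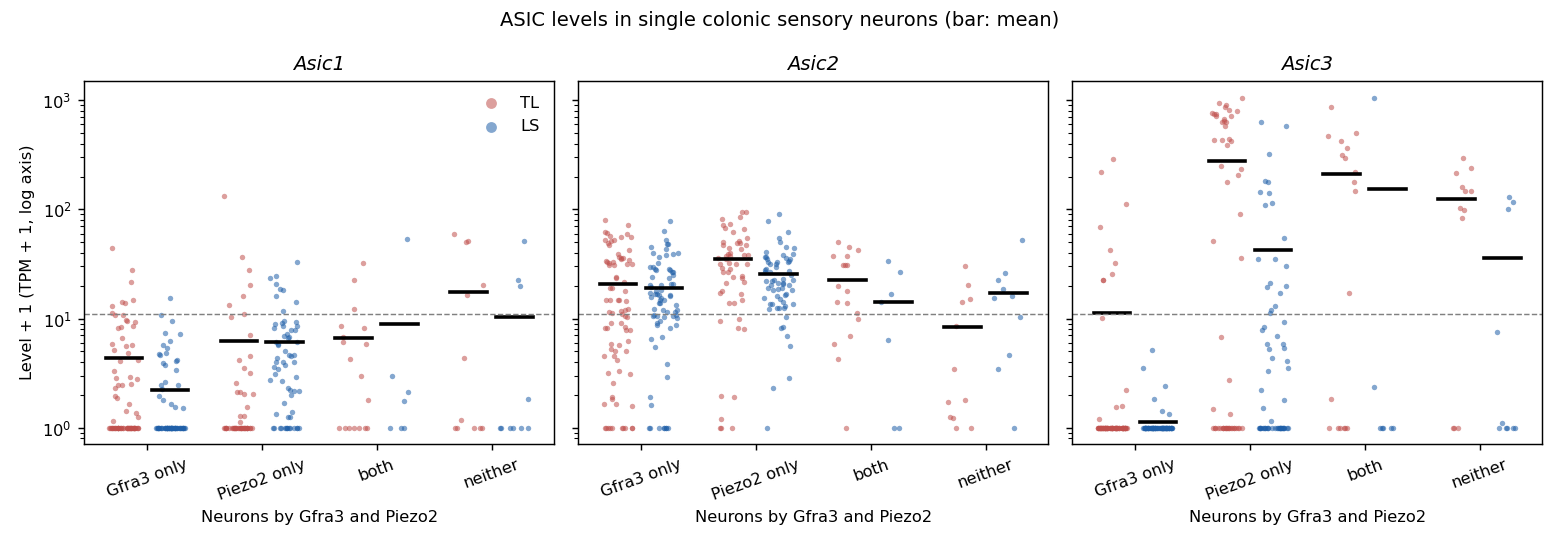
Levels of Asic1, Asic2 and Asic3 (panels; vertical log axis, TPM + 1) in each TL (red) and LS (blue) neuron, by the presence of Gfra3 and Piezo2 at 10 TPM or more (horizontal axis). Black bars mark means and the dashed line the 10 TPM threshold. Asic3 is high mainly in TL neurons with Piezo2 and stays at or below 4.19 TPM in LS Gfra3-only neurons, whereas Asic2 is present in all 4 classes.

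Calca, the gene of the peptide CGRP, was at 10 TPM or more in 80 of 81 neurons with Asic3 and in 235 of 244 without (98.8% and 96.3%), with means of 13709 and 18180 TPM, so that its presence did not set the neurons with Asic3 apart. Nefh, the heavy neurofilament subunit, was counted in 80 of 81 and 221 of 244 (98.8% and 90.6%), with means of 313 TPM with Asic3 and 90.0 TPM without it. Mrgprd, the receptor that marks non-peptidergic neurons, was largely separate, with 17 neurons at 10 TPM or more 1 of which also had Asic3. In TL Piezo2-only neurons Mrgprd was counted in 1 of 28 neurons with Asic3 and in 11 of 27 without it.

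The genes whose levels most resembled Asic3 were sought by Pearson's r of log2(TPM + 1) over all 325 neurons among 11449 genes at 10 TPM or more in at least 20 neurons. Neurons of one plate share a library pool, and genes detected in few neurons share their zeros, so r is a description. The leading genes were Cgnl1 (r = 0.75), which encodes a cell junction protein, Chp2 (0.71), a calcineurin B homologous protein, Nptx1 (0.70), a secreted pentraxin of synapses, L3mbtl4 (0.69) and Hopx (0.69), a homeodomain protein. Cgnl1 was at 10 TPM or more in 63 of the 81 neurons with Asic3 and in 86 neurons in all, Nptx1 in 76 of the 81 and in 143 in all, and L3mbtl4 in 27 of the 81 and in 28 in all. The values of r were 0.82 in TL and 0.59 in LS neurons for Cgnl1 and 0.74 and 0.62 for Nptx1. Piezo2 stood at rank 111 (0.43), Asic1 at rank 531 (0.26) and Asic2 at rank 6558 (-0.02).

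Asic1 (ENSMUSG00000023017, chromosome 15 from 99670368 to 99701130, plus strand), a subunit of channels that protons open, was present at low levels. It ranged from 0 over a median of 0 to 132.5 TPM in TL and from 0 over a median of 0.54 to 52.1 TPM in LS neurons. At 10 TPM or more it was counted in 22 of 167 TL (13.2%, 8.44 to 19.3%) and 14 of 158 LS neurons (8.86%, 4.93 to 14.4%), and with any read in 79 and 84. The intervals overlapped, and so did the levels over nearly the whole range. The means were 5.12 TPM in TL and 3.65 TPM in LS, with TL higher in 3 of 5 plates, and Asic1 was not called.

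Between the classes, Asic1 had a mean of 5.16 TPM in Piezo2-only and 2.31 TPM in Gfra3-only neurons, which is 2.23-fold and had the same direction in all 5 plates. This call rested on a single neuron, a TL Piezo2-only neuron of plate 2 at 132.5 TPM. Without it the Piezo2-only mean was 4.09 TPM, 1.77-fold, and the direction in plate 2 turned (1.81 against 4.40 TPM), so that Asic1 was not called. The call also ended without the neurons with few genes (1.93-fold) and with the values as deposited (1.66-fold). The classes stood further apart in LS than in TL. In LS neurons Asic1 was counted in 9 of 65 Piezo2-only (13.8%, 6.53 to 24.7%) and 1 of 76 Gfra3-only neurons (1.32%, 0.0333 to 7.11%), with means of 5.14 and 1.24 TPM and a read in 51 and 25 neurons. In TL neurons it was counted in 6 of 55 (10.9%) and 8 of 82 (9.76%), with means of 5.19 and 3.31 TPM. Without the neuron at 132.5 TPM the TL Piezo2-only mean was 2.83 TPM, below that of Gfra3-only neurons. Piezo2-only neurons were higher in 4 of 5 plates in LS and in 3 of 5 in TL, and the difference between the segments was not tested. The highest share was found in neurons with neither gene, 5 of 12 in TL and 3 of 10 in LS, a group in which 12 of 22 neurons had few genes detected, and the part of this in the result was not tested.

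The genes most like Asic1 had lower values of r than those for Asic3, and none of the 5 stayed among the first 5 in TL neurons alone. They were 6330409D20Rik (r = 0.40), Trim9 (0.39), a brain-enriched ubiquitin ligase, Aard (0.38), Smr2 (0.37) and Gm42622 (0.37). Smr2 and Gm42622 were each counted in 11 of the 36 neurons with Asic1. At the low levels of Asic1 these values of r give an order only.

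Asic2 (ENSMUSG00000020704, chromosome 11 from 80880169 to 81968457, minus strand) was the common ASIC of both segments. It ranged from 0 over a median of 17.0 to 93.4 TPM in TL and from 0 over a median of 17.0 to 89.3 TPM in LS neurons. It was counted in 107 of 167 TL (64.1%, 56.3 to 71.3%) and 116 of 158 LS neurons (73.4%, 65.8 to 80.1%), with means of 23.8 and 20.5 TPM. The medians were equal to 3 digits, the intervals of the shares overlapped, and TL was higher in 4 of 5 plates. Asic2 was not called, and its spread among neurons was far narrower than that of Asic3, with quartiles of 4.85 and 36.3 TPM in TL and 9.64 and 27.4 TPM in LS.

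Asic2 was also present in both classes. It was counted in 102 of 120 Piezo2-only (85.0%, 77.3 to 90.9%) and 94 of 158 Gfra3-only neurons (59.5%, 51.4 to 67.2%), and the means of 28.9 and 19.0 TPM differed 1.52-fold, with Piezo2-only neurons higher in all 5 plates. The intervals of these shares did not overlap, but the difference stayed under the 2-fold limit. By segment the means were 34.0 and 19.7 TPM in TL, and 24.6 and 18.2 TPM in LS, where Piezo2-only neurons were higher in 3 of 5 plates.

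The gene most like Asic2 was Gm11417 (r = 0.52; rank 129 in LS neurons alone), followed by Atp8a2 (0.49), a phospholipid flippase of neurons, Ackr1 (0.48), an atypical chemokine receptor, Ctsa (0.48), a lysosomal protease, and Nsf (0.48), an ATPase of membrane fusion. Gm11417 is annotated on the opposite strand within the Asic2 span, and 55 of its 56 neurons at 10 TPM or more had Asic2. The library method does not keep strand, so reads of the pair cannot be told apart where they overlap, and the r of Gm11417 is not independent of Asic2. The other genes are detected in nearly all neurons, with Nsf in 317 and Ctsa in 307 of 325.

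**Figure D3:**
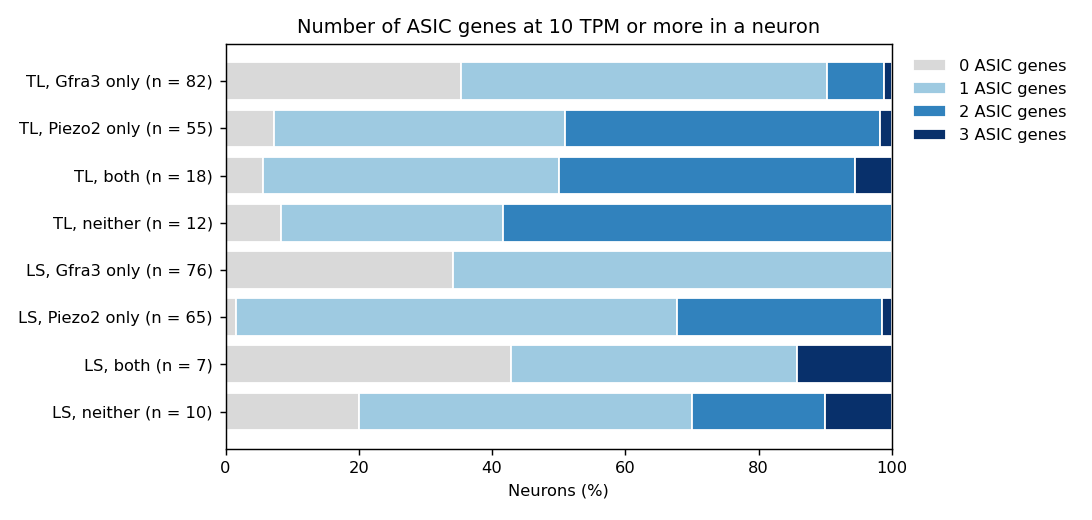
Share of neurons (horizontal axis, %) with 0, 1, 2 or 3 ASIC genes at 10 TPM or more (shades of blue, grey for 0), for each segment and class with the number of neurons. At least 2 ASIC genes were present in 27 of 55 TL and 21 of 65 LS Piezo2-only neurons, against 8 of 82 TL and 0 of 76 LS Gfra3-only neurons.

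Because ASIC subunits combine, their presence in the same neuron was counted. Of 325 neurons, 67 had no ASIC gene at 10 TPM or more, 182 had 1, 70 had 2 and 6 had 3. The most common state was Asic2 alone in 159 neurons, followed by Asic2 with Asic3 in 45, Asic3 alone in 18, Asic1 with Asic2 in 13, Asic1 with Asic3 in 12 and Asic1 alone in 5. Thus Asic2 was the one counted in 159 of the 182 neurons with a single ASIC gene, while Asic3 was found without another ASIC gene in 18 of 81.

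At least 2 ASIC genes were counted in 51 of 167 TL (30.5%, 23.7 to 38.1%) and 25 of 158 LS neurons (15.8%, 10.5 to 22.5%). The combination that differed most in number was Asic2 with Asic3, found in 32 TL and 13 LS neurons, whereas Asic1 with Asic2 was found in 7 and 6. By class, at least 2 were counted in 48 of 120 Piezo2-only (40.0%, 31.2 to 49.3%) and 8 of 158 Gfra3-only neurons (5.06%, 2.21 to 9.73%). No ASIC gene at all was counted in 55 Gfra3-only neurons (34.8%) and in 5 Piezo2-only neurons (4.17%).

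The pairs were set against the number that the product of the shares gives. Asic1 and Asic3 were together in 18 neurons where the product gives 8.97, so that 18 of 36 neurons with Asic1 (50.0%, 32.9 to 67.1%) and 63 of 289 without it (21.8%, 17.2 to 27.0%) had Asic3. Within Piezo2-only neurons the pair was found in 4 TL neurons where the product gives 3.05 and in 2 LS neurons where it gives 2.77. In the group with neither Gfra3 nor Piezo2, all 8 neurons with Asic1 also had Asic3. Of the 22 neurons of that group, 12 had few genes detected. Asic2 and Asic3 were together in 51 neurons where the product gives 55.6, and Asic1 and Asic2 in 19 where it gives 24.7. Neither of these pairs was more frequent than the shares alone give.

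Among the proton receptors, Gpr65 (ENSMUSG00000021886, chromosome 12 from 98268635 to 98276644, plus strand), also known as TDAG8 and best known from immune cells, was the one counted in more than a few neurons. It was at 10 TPM or more in 9 of 167 TL (5.39%, 2.49 to 9.98%) and 2 of 158 LS neurons (1.27%, 0.154 to 4.50%), ranging up to 23.6 TPM in TL and 25.4 TPM in LS with a median of 0 in both. A read was found in 38 TL and 11 LS neurons. The intervals overlapped, and the levels were close to the threshold.

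The mean of Gpr65 was 1.62 TPM in TL and 0.43 TPM in LS neurons, 3.80-fold, with TL higher in all 5 plates. The margin was thin in plate 5, with 0.96 against 0.86 TPM. The call ended with the values as deposited (1.98-fold, 4 of 5 plates) and with recovered reads as CPM (3.51-fold, 4 of 5 plates), and without the highest neuron, an LS neuron at 25.4 TPM, the fold was 6.05. Of the 11 neurons counted, 9 were Gfra3-only (7 TL, 2 LS), 1 had both genes and 1 was Piezo2-only. Gfra3-only neurons had a mean of 1.49 TPM and Piezo2-only neurons 0.41 TPM, higher in Gfra3-only neurons in 4 of 5 plates and so not called, although it was called with the values as deposited (4.80-fold, 5 of 5 plates). All 11 had Trpv1 (71.5 to 100%), the channel for capsaicin, heat and protons, against 223 of the 314 other neurons (71.0%, 65.7 to 76.0%). These intervals overlapped. Moreover, 10 of the 11 had Gfra3, and Trpv1 was counted in 156 of all 158 Gfra3-only neurons (98.7%). The summed level of 10 macrophage genes ran from 4.19 to 299.5 TPM (median 40.5) in the 11 neurons and from 0 to 231.3 TPM (median 35.7) in the rest, with 4 of the 10 genes at 0 in all of the 11. The 6 lymphocyte genes summed to a median of 0 in both groups, and 4 were at 0 in all of the 11. Small groups can hold such zeros for any rarely detected gene. In the 22 neurons with neither Gfra3 nor Piezo2, 4 macrophage and 5 lymphocyte genes were at 0 throughout. In the 25 neurons with both, these numbers were 0 and 4. The source of the Gpr65 reads was not tested.

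Gpr4 (ENSMUSG00000044317, chromosome 7 from 19212538 to 19224174, plus strand), a receptor typical of vascular endothelium, was counted in 3 neurons. The highest was a TL neuron of plate 3 at 535.6 TPM (1147 reads), and the next were at 10.5 and 10.3 TPM. That TL library had 24093 TPM summed over 10 endothelial genes, all of which were at 10 TPM or more, against a median of 54.6 and a second highest sum of 497 TPM over the libraries. Cldn5, the claudin of endothelial junctions, stood at 19217 TPM in it, and its sensory neuron list summed to 2435 TPM against a median of 14981. With this library the TL mean was 3.38 TPM and the LS mean 0.47 TPM, and without it the TL mean was 0.17 TPM, so that the direction turned. Over plates 2, 4, 5 and 6 LS was higher in each, and 25 LS and 13 TL neurons had a read. Gpr4 was not called in any of the comparisons over all plates.

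Asic4 (ENSMUSG00000033007, chromosome 1 from 75450436 to 75474343, plus strand) had a read in 17 neurons, 10 TL and 7 LS, with a highest level of 3.35 TPM. Gpr132 (ENSMUSG00000021298, chromosome 12 from 112850873 to 112868228, minus strand) had a read in 23 neurons, 4 TL and 19 LS, with a highest level of 2.16 TPM. Both stayed below the filter on the mean and were not compared. At this depth their absence cannot be stated, only that no neuron reached 10 TPM.

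**Figure D4:**
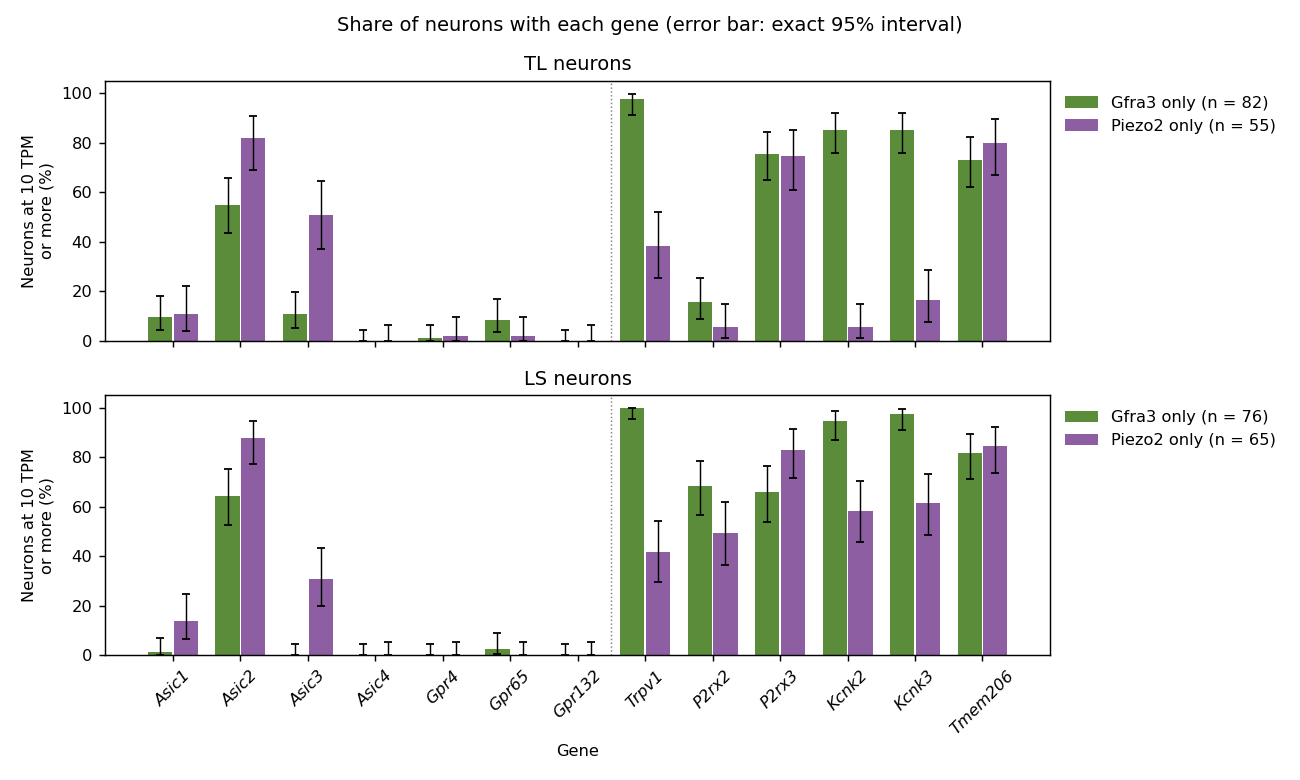
Share of Gfra3-only (green) and Piezo2-only (purple) neurons (vertical axis, %) with each gene (horizontal axis) at 10 TPM or more, in TL (top) and LS (bottom) neurons, with exact 95% intervals as error bars. The 7 members stand left of the dotted line and 6 other proton-sensitive proteins right of it. Asic3 is found in 50.9% and 30.8% of the Piezo2-only neurons of TL and LS, whereas Trpv1, Kcnk2 and Kcnk3 stand higher in Gfra3-only neurons of both segments.

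The other proteins that protons open or modulate gave the setting in which the members were found. Of 11 such genes, 6 passed the filter on the mean, and Asic5, Trpv4, Kcnk9 and Pkd2l1 reached 10 TPM in no neuron. Between the classes, 3 were called higher in Gfra3-only neurons, namely Trpv1 and the acid-modulated leak potassium channels Kcnk2 (TREK-1) and Kcnk3 (TASK-1). Only P2rx3, an ATP-gated channel subunit of nociceptors, was called higher in Piezo2-only neurons. Of all genes tested, 4.89% were called higher in Gfra3-only and 6.01% in Piezo2-only neurons. The median log2 ratio of Piezo2-only over Gfra3-only means was -1.80 over the 6 genes and 0.01 over all genes. The list was chosen with earlier results of these data known, so its calls and median are a description only.

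Trpv1 had means of 1200 TPM in Gfra3-only and 127 TPM in Piezo2-only neurons, Kcnk2 of 80.1 and 10.7 TPM and Kcnk3 of 124 and 14.9 TPM. P2rx3 had means of 147 TPM in Piezo2-only and 44.9 TPM in Gfra3-only neurons. Tmem206, a proton-activated chloride channel, was counted in 246 neurons with means of 24.3 and 29.1 TPM in Piezo2-only and Gfra3-only neurons and was not called.

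Asic3 and Trpv1 were found together less often than the product of their shares gives. Trpv1 was at 10 TPM or more in 36 of 81 neurons with Asic3 (44.4%, 33.4 to 55.9%) and 198 of 244 without (81.1%, 75.7 to 85.9%), and the product gives 58.3 neurons with both. In TL neurons 30 of 57 with Asic3 had Trpv1 (52.6%, 38.97 to 66.0%) against 90 of 110 without (81.8%, 73.3 to 88.5%). In LS neurons 6 of 24 with Asic3 had it (25.0%, 9.77 to 46.7%) against 108 of 134 without (80.6%, 72.9 to 86.9%). Within Piezo2-only neurons Trpv1 was found in 10 of 28 TL neurons with Asic3 and 11 of 27 without, and in 6 of 20 LS neurons with Asic3 and 21 of 45 without. Within each segment the intervals of these shares overlapped (18.6 to 55.9% and 22.4 to 61.2% in TL, 11.9 to 54.3% and 31.7 to 62.1% in LS).

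**Figure D5:**
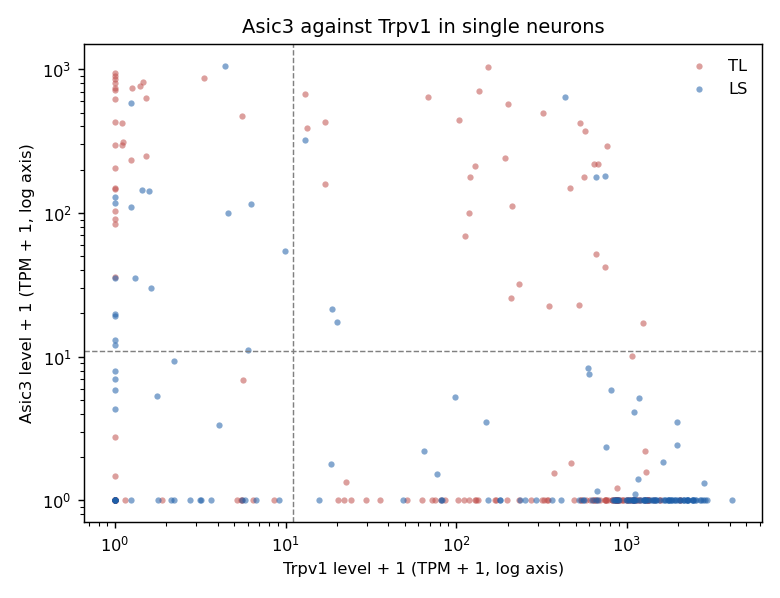
Asic3 level (vertical log axis, TPM + 1) against the Trpv1 level (horizontal log axis, TPM + 1) in single TL (red) and LS (blue) neurons, with dashed lines at 10 TPM. The corner above both lines holds 36 neurons, 30 TL and 6 LS.

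Between the segments, Trpv1 and P2rx2 were called higher in LS and P2rx3 higher in TL. Of all genes tested, 3.68% were called higher in LS and 3.19% in TL. P2rx2, which forms channels with P2rx3, had means of 26.4 TPM in LS and 3.11 TPM in TL neurons, Trpv1 of 926 and 453.8 TPM, and P2rx3 of 56.9 and 121.7 TPM. Within Piezo2-only neurons, where Asic3 was higher in TL, Kcnk2, Kcnk3 and P2rx2 were called higher in LS, as were 5.76% of all genes. Kcnk2 had means of 18.0 TPM in LS and 2.05 TPM in TL Piezo2-only neurons, and Kcnk3 of 23.3 and 4.93 TPM. Within Gfra3-only neurons Trpv1 and P2rx2 were called higher in LS, as were 3.00% of all genes.

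Transcripts of proteins that bind ASIC subunits or modify their currents, listed with other stomatin-like proteins, were present in both segments. Stoml2 was listed as a stomatin-like protein, and no action of it on ASICs is shown here. Stoml1, a stomatin-like protein that regulates ASIC1, was counted in 316 of 325 neurons, Stoml2 in 312, Lin7b, a PDZ protein that binds ASIC3, in 299, Pick1, a PDZ protein that binds ASIC1 and ASIC2, in 248, and Stom, stomatin, in 198. Stoml3, a stomatin-like protein of touch receptors, was counted in 2. Of the 5 that passed the filter on the mean, none was called between the segments or between the classes. Stoml1 had means of 229 TPM in Piezo2-only and 138 TPM in Gfra3-only neurons, 1.65-fold and higher in all 5 plates. Within Piezo2-only neurons Pick1 had means of 21.0 TPM in LS and 11.7 TPM in TL, 1.80-fold and higher in all 5 plates. None of the 5 was called within either class.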

How the data were processed

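FB-labelled neurons were sequenced by Smart-seq2 (paired-end, 6 pooled libraries, here called plates after the labels). Per the labels, the submitters' processing notes name bcl2fastq 2.15.0.4, STAR 2.4.1 and featureCounts 1.4.4, and build GRCm38.p3. The authors deposited normalised log2 values, with 1 added before the log, for 325 neurons that passed their quality filter and 45513 genes. The labels give 203 TL and 196 LS neurons, and those outside the table, with the bath controls (6 TL, 7 LS), were not analysed here.

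Each value was taken off the log2 scale (2 to the value, less 1) and rescaled to 1000000 per neuron, which gives TPM on the authors' gene lengths. Gene symbols came from GENCODE M21 (GRCm38). Whole reads were recovered from the values (relative tolerance 1e-06); 65.0% of values above 0 were whole with annotated lengths, and for 8712 genes the length was found from the values themselves. Reads served for depth and for an alternative scale, and counting precision follows from them.

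Groups were the segment labels and the classes by Gfra3 and Piezo2 at 10 TPM or more. A gene was called where its mean over all neurons was at least 1 TPM, the group means differed at least 2-fold and the direction was the same in each of plates 2 to 6. No significance test was run, since cells of one sample are not replicates. Few genes detected means a log10 number of genes over 3 scaled median absolute deviations below the median. The scripts were tested on simulated data. Named are all members, Gfra3 and Piezo2, genes of fixed lists (2 listed genes are not reported here), and, for members at 10 TPM or more in at least 20 neurons, the 5 genes with the highest r. Calca, Nefh and Mrgprd were added after their values were seen. The members and lists were chosen with earlier results of these data known. The alternatives without the library rich in endothelial transcripts, without neurons with neither gene and without a member's highest neuron were chosen after seeing the data. The others included other thresholds, the values as deposited, recovered reads as CPM, thinned reads and each plate left out. Python 3.11.15 with numpy 2.4.6, pandas 2.3.3, scipy 1.17.1 and matplotlib 3.10.9 was used.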

Additional observations from a re-analysis of the deposited data

Results flagged for a closer look

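The plate means of each member were examined in each segment over plates 2 to 6, 14 groups of 5 values in all, and 2 held a value far from the other 4. Chance alone gives about 1 in 20 such groups where values follow a normal distribution. Plate means of genes found in few neurons do not, so the number that chance gives here is not known. The mean of Gpr4 in TL neurons of plate 3 was 24.8 TPM, against a median of 0.13 and a highest value of 0.19 TPM in the other plates. The plate holds the library with 535.6 TPM of Gpr4 and 24093 TPM of summed endothelial transcripts, without which the mean over all TL neurons was 0.17 TPM. The mean of Gpr65 in LS neurons of plate 5 was 0.86 TPM, against a median of 0.30 and a highest value of 0.31 TPM in the other plates. A single LS neuron of that plate had 25.4 TPM of Gpr65 (26 reads).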

How the results depend on the processing

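Of 460 values under alternatives, 368 moved by less than their spread or within 1.5-fold for counts, 92 moved further and 0 reversed a call. The ratio of Asic3 between TL and LS had the same direction in 20 of 20 alternatives and that between the classes in 15 of 15, as had the class ratios of Asic1 and Asic2, whereas the segment ratio kept its direction in 17 of 20 for Asic1 and 18 of 20 for Asic2. These counts include each plate left out and, for the segments, each of plates 2 to 6 alone. Where all 5 plates had 1 direction, as the call rule requires, those alternatives could hardly differ. They add no support, and the 0 reversed calls are limited in the same way. Shares depended on the threshold. Asic2 was counted in 83.2%, 74.3% and 13.2% of TL and in 91.1%, 86.1% and 5.06% of LS neurons at thresholds of 1, 5 and 50 TPM, in 73.7% and 83.5% at 10 CPM of recovered reads, and in 74.7% and 87.1% with 5 of 500000 thinned reads, which left out 4 neurons. Asic3 was counted in 26.6% of LS neurons at 1 TPM and 8.86% at 50 TPM. At least 2 ASIC genes were counted in 53.2%, 34.5% and 2.46% of neurons at 1, 5 and 50 TPM, and in 30.5% of TL and 15.8% of LS neurons. The log2 ratio of LS over TL was -2.52 for Asic1 and 0.49 for Asic2 in plate 2 alone, and for Asic3 -3.73 in plate 4, -4.46 in plate 5 and -6.32 within Gfra3-only neurons. Without each plate in turn it ran from -2.73 to -1.98 for Asic3. The log2 ratio of Piezo2-only over Gfra3-only means of Asic1 was 0.73 as deposited, 0.58 as a difference of mean log2 values, 0.95 without neurons with few genes, 0.82 without its highest neuron (0.86-fold in TL alone, a turned direction), 0.80 with a class threshold of 50 TPM, 0.65 in TL and 2.05 in LS, and that of Asic3 was 8.36 in LS. Calls fell to 372 higher in LS as deposited, and to 133 in LS and 125 in TL with a mean of at least 10 TPM. Between the classes they were 561 (Piezo2-only) and 1262 (Gfra3-only) as deposited, and 301 and 253 with a mean of at least 10 TPM. The causes of these changes were not tested, except that a higher mean leaves fewer genes. Of the 5 genes most like Asic3, 2 stayed among the first 5 with Spearman's coefficient, 3 in TL and 3 in LS alone. For Asic1 these numbers were 2, 0 and 1, and for Asic2 2, 1 and 1, where Gm11417 fell to rank 129 in LS alone. No paired analysis was possible because the labels name no animal or culture that TL and LS neurons share. Levels near 1 read, as at the low end of Asic4, Gpr4, Gpr65 and Gpr132, are limited by depth. The most reads in 1 neuron were 18 for Asic4, 8 for Gpr132, 107 for Gpr65 and 1147 for Gpr4.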

Other observations

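Genes that move acid and lactate across the membrane of the neuron were listed with the members, and 7 of the 8 passed the filter on the mean. Slc16a1, the lactate and proton transporter MCT1, was counted in 269 of 325 neurons. It was not called between the segments or the classes, and its mean was 31.4 TPM in LS and 32.6 TPM in TL neurons. The bicarbonate transporters Slc4a3 and Slc4a7 were counted in 27 and 7 neurons and were not called.

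Car2, a cytosolic carbonic anhydrase, was called higher in Piezo2-only neurons, with a mean of 33.8 TPM against 14.7 TPM in Gfra3-only neurons. Car8, a carbonic anhydrase-related protein without enzyme activity, was called in the opposite direction, with 0.91 TPM in Piezo2-only and 129.9 TPM in Gfra3-only neurons, and was also called higher in LS (89.1 TPM) than in TL neurons (43.6 TPM). Within Gfra3-only neurons Car8 had means of 179.8 TPM in LS and 83.6 TPM in TL and was called. Slc16a3, the lactate transporter MCT4, was called higher in LS within Piezo2-only neurons, with means of 3.42 and 0.38 TPM. Of all genes tested, 6.01% were called higher in Piezo2-only neurons, 4.89% in Gfra3-only neurons and 3.68% in LS. Within Piezo2-only neurons 5.76% were called higher in LS, and within Gfra3-only neurons 3.00%.

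Asic2 was at 10 TPM or more in 16 of the 17 neurons with Mrgprd, and Asic1 in none of them. These pairs were examined after the values of Mrgprd had been seen.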
